A study of Mus musculus with 14 samples.

Results

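The genes described here encode enzymes and cofactors that write, copy or remove cytosine methylation in mouse embryonic stem cells (ESCs). They were chosen by symbol in the deposited FPKM table, where FPKM stands for fragments per kilobase of transcript, scaled to the mapped fragments of each sample, and all 10 of 10 were found among 41204 genes. Each of the 10 passed the filter of a mean above 0.2 FPKM, which left 15430 genes for testing. Poly(A) RNA was sequenced from wild-type ESCs and from Trincr1-/- ESCs of a C57BL/6(F) x 129/sv(M) background, each in 2i + LIF and in PD + LIF, with 2 samples in each of the 4 groups. The 2i + LIF medium was serum-free N2B27 with the MEK inhibitor PD0325901 at 1.0 µM, the GSK3 inhibitor CHIR99021 at 3.0 µM and 1000 units per ml of leukemia inhibitory factor. The PD + LIF cells spent 24 hours in 2i + LIF and then 4 days in the same medium without CHIR99021, so all 4 groups kept the MEK inhibitor and LIF throughout. Trincr1 is a long noncoding RNA, listed in the table as Gm2694, that binds the RNA-binding protein TRIM71, and the knockout cells lost a stretch of the gene between a pair of guide RNA sites. Whether the 2 Trincr1-/- samples of a medium came from separate clones is not given in the sources used here.

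Trincr1 itself was at 5.71 and 9.45 FPKM in wild-type ESCs in 2i + LIF and at 0.0754 and 0 in Trincr1-/- ESCs. In PD + LIF it was at 6.18 and 6.56 FPKM in wild-type ESCs and at 1.38 and 0.746 in Trincr1-/- ESCs, so the groups did not overlap in either medium. Within Trincr1-/- ESCs the remaining signal was higher in PD + LIF than in 2i + LIF (log2 difference 0.98, limma, adjusted p = 0.0105). Its cause was not tested. ESC marker genes were abundant in every sample, with a summed level of 1095 to 2008 FPKM over 10 genes. The step sizes of low FPKM values put the depth at 10.3 to 14.1 M fragments per sample.

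DNA methylation is laid down at unmethylated CpG sites by the de novo enzymes DNMT3A and DNMT3B, helped by the catalytically inactive cofactor DNMT3L. It is copied to the new strand at each replication by DNMT1, which the hemimethylated-DNA reader UHRF1 brings to the replication fork. The TET dioxygenases oxidise methylcytosine, and the glycosylase TDG excises the most oxidised forms so that base excision repair can restore cytosine. Mouse ESCs are known for low methylation in 2i + LIF and for a gain of methylation when they leave that state.

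Promoter windows are shown for Dnmt3b, Dnmt3l and Tet3, the members that PD + LIF samples without Trincr1 held at a higher level, and for Tet2, which had the largest difference between media in both genotypes. Each runs from 250 bases before to 50 bases after a RefSeq transcription start in GRCm38.p6, 5′ to 3′ on the strand of the gene, with CpG sites, the substrate of these enzymes, in capitals.
Dnmt3b: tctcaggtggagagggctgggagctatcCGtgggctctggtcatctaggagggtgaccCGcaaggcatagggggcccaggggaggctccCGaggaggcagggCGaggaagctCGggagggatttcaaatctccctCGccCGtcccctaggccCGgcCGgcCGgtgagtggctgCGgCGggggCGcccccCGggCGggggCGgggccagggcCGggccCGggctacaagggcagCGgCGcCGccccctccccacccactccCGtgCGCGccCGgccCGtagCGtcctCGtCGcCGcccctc
Dnmt3l: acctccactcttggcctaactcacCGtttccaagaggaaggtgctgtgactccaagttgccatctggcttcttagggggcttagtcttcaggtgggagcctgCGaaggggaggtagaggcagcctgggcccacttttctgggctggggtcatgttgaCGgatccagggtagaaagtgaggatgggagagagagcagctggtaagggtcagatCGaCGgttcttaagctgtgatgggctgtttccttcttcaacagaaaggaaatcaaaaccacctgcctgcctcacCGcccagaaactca
Tet3: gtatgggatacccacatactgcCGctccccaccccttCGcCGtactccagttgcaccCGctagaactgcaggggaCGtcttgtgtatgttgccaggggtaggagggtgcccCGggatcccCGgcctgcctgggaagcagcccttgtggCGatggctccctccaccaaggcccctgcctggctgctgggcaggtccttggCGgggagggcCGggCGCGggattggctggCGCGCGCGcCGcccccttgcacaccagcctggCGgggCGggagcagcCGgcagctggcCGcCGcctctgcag
Tet2: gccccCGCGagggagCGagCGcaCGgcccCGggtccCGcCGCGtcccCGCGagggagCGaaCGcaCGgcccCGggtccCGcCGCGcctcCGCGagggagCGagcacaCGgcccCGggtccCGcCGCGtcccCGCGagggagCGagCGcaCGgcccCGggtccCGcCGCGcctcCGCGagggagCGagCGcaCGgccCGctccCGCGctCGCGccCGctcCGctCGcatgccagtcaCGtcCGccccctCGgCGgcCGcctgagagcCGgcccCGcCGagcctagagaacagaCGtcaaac
The Dnmt3b window lies at chr2:153649199-153649498 on the plus strand and holds 30 CpG sites. Dnmt3l has 3 windows in RefSeq, and the printed one, at chr10:78042037-78042336 on the plus strand, holds 6 CpG sites. It lies inside the interval of the neighbouring gene Aire in the deposited table. The others, which start at 78049592 and 78055085, hold 4 and 3 CpG sites. Which of these starts the cells used was not tested. The Tet3 window, at chr6:83441629-83441928 on the minus strand, holds 22 and lies inside the Tet3 interval of the table. The Tet2 window, at chr3:133544341-133544640 on the minus strand, holds 57 CpG sites, more than in 99.9% of the 32851 mouse promoter windows. In the Tet2 window the 12-base word cCGCGagggagc occurs 5 times, and 2.92% of all windows hold some 12-base word as often.

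The 10 members had 17 promoter windows in RefSeq, with 2 to 57 CpG sites against a median of 7 over all windows. Windows were searched on both strands for 5 motifs. The TCF/LEF motif CTTTGAT, which is read by the factors downstream of GSK3 inhibition, was in 0 of the 17 windows and in 3.73% of all windows. The E2F motif TTCCCGC was in 1 window, of Uhrf1, and in 4.6% of all. The GC box GGGCGG was in 13 windows, of all members but Tdg, and in 35.7% of all. The E-box CACGTG was in 3 windows, of Dnmt3a, Dnmt3l and Tdg, and in 7.15% of all, and CCAAT was in 6 windows and in 37.4% of all. A match describes the letters of the window and not a bound site.

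In wild-type ESCs in 2i + LIF, Uhrf1 was the most abundant member (234 ± 10.1 FPKM, mean ± SD, n = 2) and Tet3 the least abundant (0.829 ± 0.254 FPKM). Between them stood Dnmt3l (95.7 FPKM), Dnmt1 (76.1), Dnmt3b (43.7), Tet1 (36.9), Tdg (36.0), Tet2 (17.3), Uhrf2 (12.3) and Dnmt3a (11.7). FPKM is a level per transcript length, so these levels can be set side by side. Tet1 and Tdg overlapped in their replicates, as did Uhrf2 and Dnmt3a, and every other pair of neighbours in that order was apart. In Trincr1-/- ESCs in PD + LIF the order had changed, with Dnmt3l (179 ± 6.93 FPKM) above Uhrf1 (166 ± 2.85), Dnmt3b (129 ± 10.5) above Dnmt1 (78.9 ± 0.334), and Tet3 (3.95 ± 0.285) above Tet2 (2.85 ± 0.177).

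**Figure D1:**
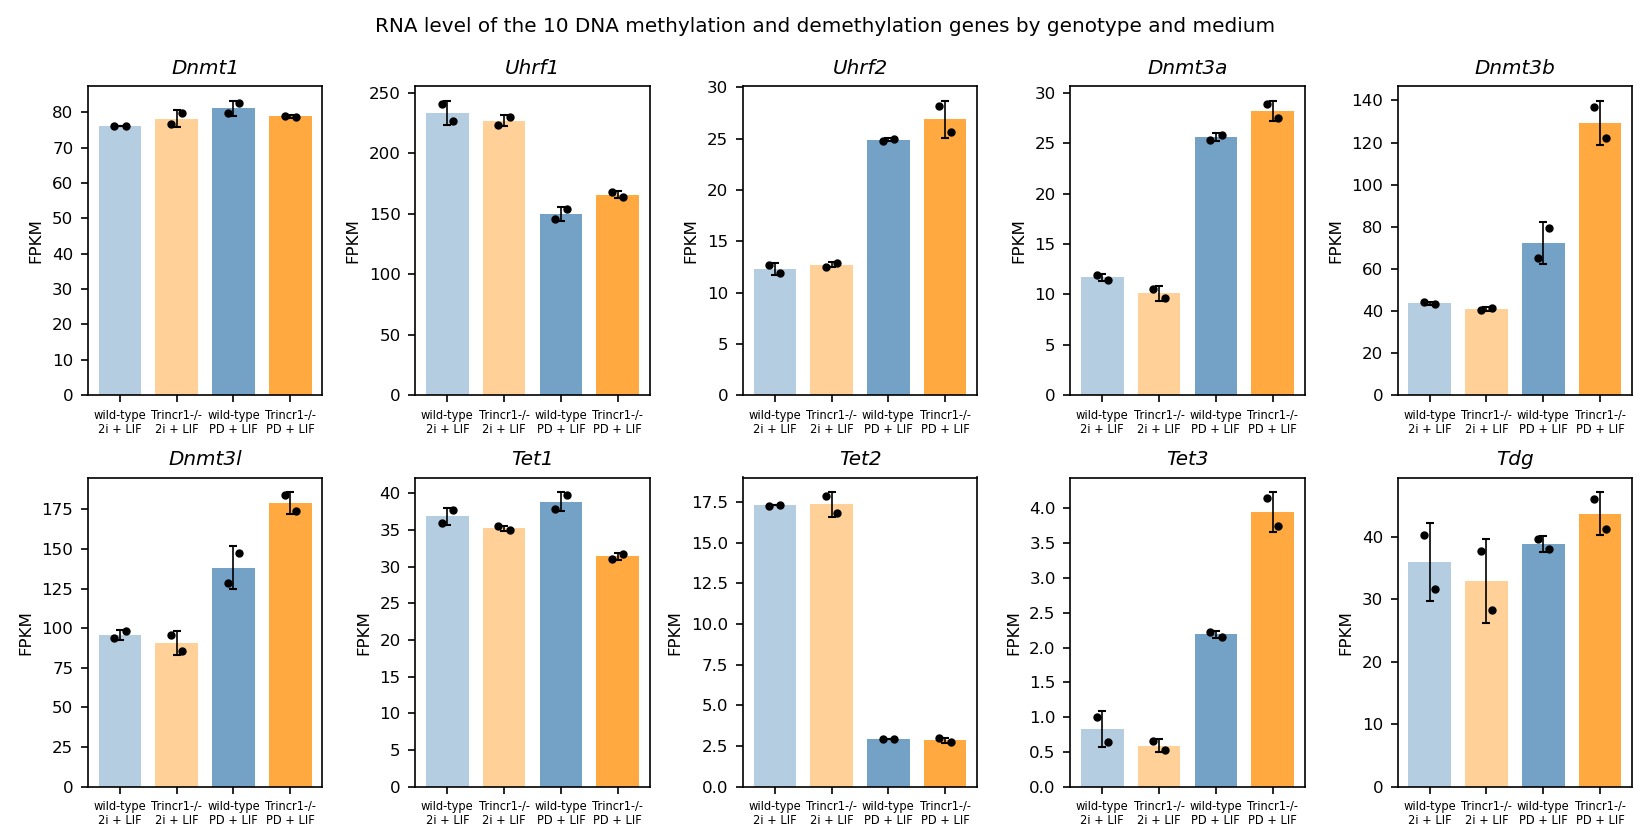
FPKM (y axis, from 0, a separate scale for each gene) of the 10 genes in the 4 groups on the x axis. Bars are means of 2 samples, error bars are SD and points are the samples. Tet2 stood at 16.8 to 17.9 FPKM in 2i + LIF and at 2.72 to 2.97 in PD + LIF, and the Dnmt3b samples of Trincr1-/- ESCs in PD + LIF, at 122 and 137, were above all others.

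Removal of the GSK3 inhibitor was compared in wild-type ESCs to ask how the methylation machinery differs between the 2 media. Of the 10 members, 5 rose, against 30.9% of all 15430 genes, and 2 fell, against 21.3% (limma, adjusted p under 0.05, 52.2% of all genes called in either direction). The de novo genes Dnmt3a, Dnmt3b and Dnmt3l, the oxygenase gene Tet3 and Uhrf2 rose, whereas Tet2 and Uhrf1 fell. In Trincr1-/- ESCs the same 7 members were called in the same directions and Tet1 fell as well, so that 5 rose, against 29.6% of all genes, and 3 fell, against 20.3% (50.0% in either direction). Replicates of the media did not overlap for 9 of the 10 members in each genotype, against 76.4% of all genes in wild-type and 74.5% in Trincr1-/- ESCs. The median log2 difference of the 10 members was 0.32 in wild-type and 0.69 in Trincr1-/- ESCs, beside 0.08 and 0.07 over all genes tested. Scaling each sample to its median gene shifted the median of all genes in wild-type ESCs from 0.08 to -0.04 and the share of calls that were higher from 59.2% to 45.3%, and it left the 7 calls of the members in place.

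Loss of Trincr1 was compared within each medium to ask which of these genes differ without it. In PD + LIF, Dnmt3b, Dnmt3l and Tet3 were higher and Tet1 was lower in Trincr1-/- ESCs (limma, adjusted p under 0.05), 4 of 10 members against 12.1% of all genes, or 3 against 6.29% higher and 1 against 5.77% lower. The genotypes did not overlap for 9 of 10 members in PD + LIF and for 4 of 10 in 2i + LIF, against 57.7% and 44.4% of all genes. In 2i + LIF, 0 of 10 members passed the test, against 1.21% of all genes, and at an unadjusted p under 0.05 there was 1, Dnmt3a. Differences of the members in 2i + LIF ran from -0.20 for Dnmt3a to 0.05 for Uhrf2 on the log2 scale. The difference of the genotype effect between the media was past the threshold for 1 member, Dnmt3b, against 1.81% of all genes. These comparisons share samples, since the samples of each of the 4 groups enter more than 1 of them. The calls in PD + LIF rest on a spread estimated from all 8 samples: fitted on the 4 PD + LIF samples alone, none of the 4 genes passed, and Dnmt3b had an adjusted p of 0.0537 by limma.

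**Figure D2:**
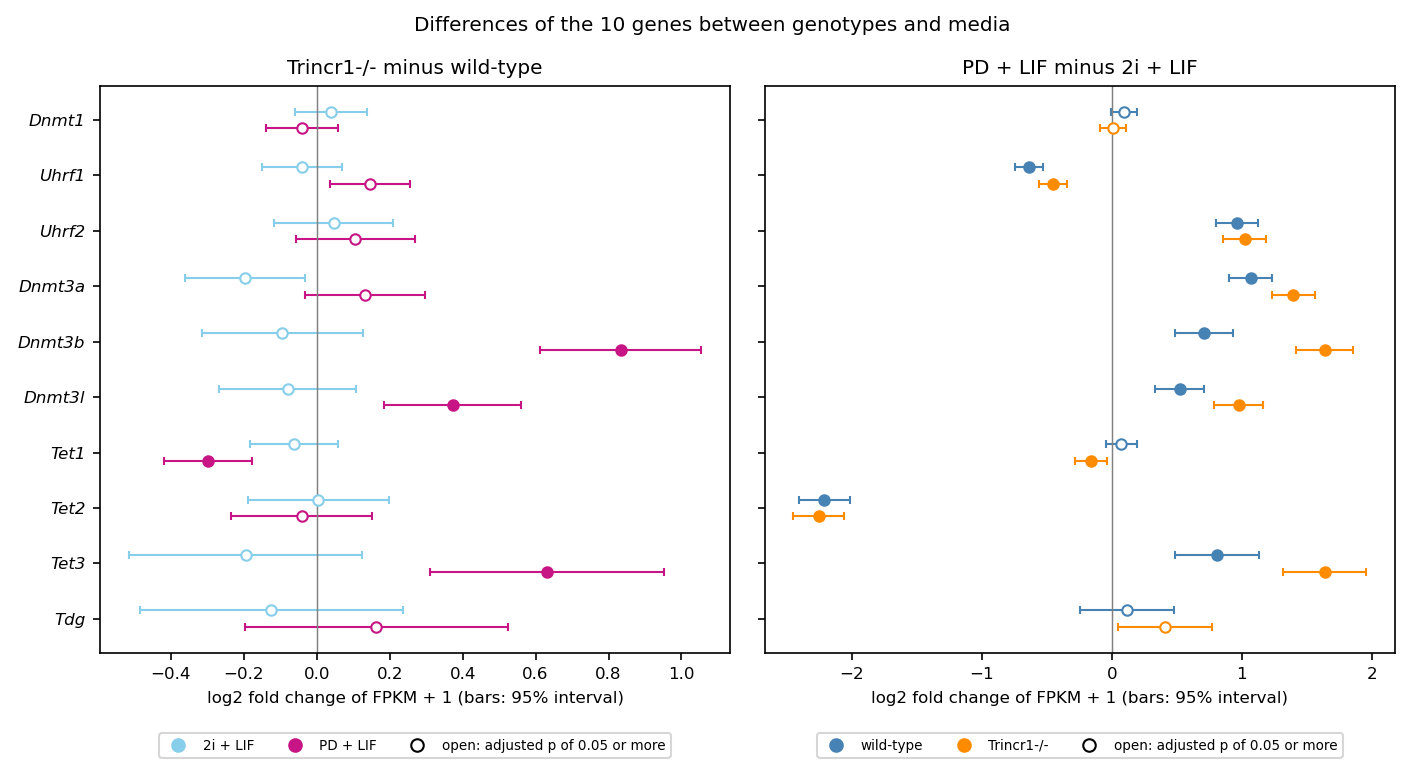
Log2 fold change of FPKM + 1 (x axis) for each gene (y axis), on the left Trincr1-/- minus wild-type in each medium and on the right PD + LIF minus 2i + LIF in each genotype. Points are limma estimates, bars are 95% intervals, and open points did not pass an adjusted p of 0.05. On the left the filled points are Dnmt3b at 0.83, Tet3 at 0.63, Dnmt3l at 0.37 and Tet1 at -0.30, all in PD + LIF, and on the right Tet2 lies below -2 in both genotypes.

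Among the maintenance genes, Dnmt1 (chr9:20907206-20959888, GRCm38), which copies methylation after replication, was at 76.0 and 76.2 FPKM in wild-type and at 76.6 and 79.9 in Trincr1-/- ESCs in 2i + LIF. After the change to PD + LIF it stood at 79.7 and 82.7 FPKM in wild-type and at 79.1 and 78.6 in Trincr1-/- ESCs. All 8 values lay within a narrow range, and Dnmt1 did not pass the test in any comparison as deposited. The 95% interval of its log2 difference was -0.14 to 0.06 between genotypes in PD + LIF and -0.01 to 0.19 between media in wild-type ESCs. The sign of the difference between media depended on scaling: it was 0.09 in wild-type ESCs as deposited -0.07 with each sample scaled to its median gene, and 0.20 after quantile normalization, where it passed (limma, adjusted p = 0.00599).

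Uhrf1 (chr17:56303321-56323486), whose protein recruits DNMT1 to hemimethylated DNA, was at 241 and 226 FPKM in wild-type and at 224 and 230.5 in Trincr1-/- ESCs in 2i + LIF. Its PD + LIF values were 146 and 154 FPKM in wild-type and 168 and 164 in Trincr1-/- ESCs, so that every PD + LIF sample was below every 2i + LIF sample. It fell by 0.64 on the log2 scale in wild-type ESCs (SE 0.05, limma, adjusted p = 4.86e-05) and by 0.45 in Trincr1-/- ESCs (SE 0.05, adjusted p = 0.000221). In PD + LIF the Trincr1-/- samples lay above the wild-type samples by 0.15 (95% interval 0.04 to 0.25), which did not pass the limma test (adjusted p = 0.0883). A pseudogene on chromosome X, Gm5648, matches 71.9% of the Uhrf1 transcript at 95% identity or more in NCBIM37, and it was listed at 1.92 to 4.70 FPKM, so some reads may have been split between them.

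Uhrf2 (chr19:30030513-30093722), a relative of Uhrf1 that does not replace it in maintenance, moved the opposite way. It was at 12.7 and 11.9 FPKM in wild-type and at 12.5 and 12.9 in Trincr1-/- ESCs in 2i + LIF, and at 24.8 and 25.0 in wild-type and at 28.2 and 25.6 in Trincr1-/- ESCs in PD + LIF. The media did not overlap, and Uhrf2 rose 2.02-fold in wild-type ESCs (log2 0.96, SE 0.07, limma, adjusted p = 4.59e-05) and 2.11-fold in Trincr1-/- ESCs (log2 1.02, adjusted p = 3.28e-05). Between genotypes it differed by 0.11 in PD + LIF (95% interval -0.06 to 0.27), which did not pass. Uhrf1 made up 94.9% ± 0.176 of the summed FPKM of the pair over the 4 samples in 2i + LIF and 85.9% ± 0.451 over the 4 in PD + LIF. That drop of 8.93 percentage points held in all samples (two-sided exact permutation test of 4 against 4 samples, genotypes pooled, p = 0.0286, the smallest that this pooled test allows). The test treats samples of the 2 genotypes as exchangeable and does not keep them apart.

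Among the de novo genes, Dnmt3a (chr12:3806007-3914443) was at 12.0 and 11.5 FPKM in wild-type and at 10.6 and 9.60 in Trincr1-/- ESCs in 2i + LIF. PD + LIF brought it to 25.4 and 25.9 FPKM in wild-type and 28.9 and 27.5 in Trincr1-/- ESCs. The genotypes did not overlap in either medium, but stood in opposite order in the 2 media. Dnmt3a rose 2.19-fold in wild-type ESCs (log2 1.07, SE 0.07, limma, adjusted p = 3.13e-05) and 2.79-fold in Trincr1-/- ESCs (log2 1.40, adjusted p = 9.15e-06). Between genotypes the log2 difference was -0.20 in 2i + LIF (limma, adjusted p = 0.256) and 0.13 in PD + LIF (adjusted p = 0.263), and the difference of these effects, 0.33, did not pass either (adjusted p = 0.142).

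Dnmt3b (chr2:153649450-153687730), the other de novo enzyme, was at 44.2 and 43.2 FPKM in wild-type and at 40.3 and 41.5 in Trincr1-/- ESCs in 2i + LIF. In PD + LIF it was at 65.4 and 79.4 FPKM in wild-type and at 137 and 122 in Trincr1-/- ESCs. The wild-type samples in PD + LIF spread more widely than those of any other group for this gene when set against their mean, and both Trincr1-/- samples lay well above them. Dnmt3b rose 1.66-fold from 2i + LIF to PD + LIF in wild-type ESCs (log2 0.71, SE 0.09, limma, adjusted p = 0.000697) and 3.17-fold in Trincr1-/- ESCs (log2 1.64, adjusted p = 1.55e-05). Within PD + LIF, Trincr1-/- ESCs held 1.79-fold more than wild-type ESCs (log2 0.83, 95% interval 0.61 to 1.06, adjusted p = 0.00389), while in 2i + LIF the difference was -0.09 (95% interval -0.32 to 0.13, adjusted p = 0.729). The genotype effect was larger in PD + LIF by 0.93 (SE 0.13, limma, adjusted p = 0.0285), a call that was kept without wild-type PD + LIF replicate 2 and lost without any other single library (adjusted p from 0.0637 to 0.117). The higher level in PD + LIF stayed past the threshold without any single library. Near-identical sequence of at least 100 bases elsewhere in the genome covered 434 of the 4320 bases of its transcript, at Gm14490, which was listed at 0 to 0.127 FPKM.

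Dnmt3l (chr10:78041947-78063622), the cofactor that stimulates both de novo enzymes, was at 93.5 and 97.9 FPKM in wild-type and at 95.9 and 85.4 in Trincr1-/- ESCs in 2i + LIF. Its PD + LIF levels were 129 and 148 FPKM in wild-type and 184 and 174 in Trincr1-/- ESCs. The genotypes overlapped in 2i + LIF and were apart in PD + LIF. Dnmt3l rose 1.44-fold between media in wild-type ESCs (log2 0.52, SE 0.08, limma, adjusted p = 0.00136) and 1.97-fold in Trincr1-/- ESCs (log2 0.97, adjusted p = 7.71e-05). Trincr1-/- ESCs held 1.29-fold more in PD + LIF (log2 0.37, 95% interval 0.18 to 0.56, adjusted p = 0.0289), which passed under 8 of 17 alternatives, with adjusted p from 0.0222 to 0.161. It was lost without either wild-type 2i + LIF library, wild-type PD + LIF replicate 1 or either Trincr1-/- PD + LIF library. The neighbouring gene Aire overlaps the Dnmt3l interval, and the strand used in counting is not stated. Aire was at 14.8 and 20.5 FPKM in wild-type and at 16.9 and 14.5 in Trincr1-/- ESCs in PD + LIF, so its genotypes overlapped, and it rose 2.40-fold between media in wild-type ESCs (limma, adjusted p = 0.00363).

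Summed over Dnmt3a, Dnmt3b and Dnmt3l, the level was 151 ± 2.04 FPKM in wild-type and 142 ± 7.23 in Trincr1-/- ESCs in 2i + LIF. In PD + LIF the sum was 236 ± 23.6 FPKM in wild-type and 336 ± 18.4 in Trincr1-/- ESCs. The balance of the 2 enzymes differed by genotype in PD + LIF, where Dnmt3b was 2.58 and 3.07 times Dnmt3a in the wild-type samples and 4.73 and 4.44 times in the Trincr1-/- samples. In 2i + LIF the ratio was 3.70 and 3.77 in wild-type and 3.80 and 4.32 in Trincr1-/- ESCs. With 2 samples against 2, an exact permutation test cannot go below 0.333, so the ratio is given without a test. Over both genotypes the share of Dnmt3b in the pair was 79.5% ± 1.14 in 2i + LIF and 77.9% ± 5.03 in PD + LIF (n = 4 each, exact permutation p = 0.6). The share went from 78.9% to 73.7% in wild-type and from 80.2% to 82.1% in Trincr1-/- ESCs. These directions are opposite, so the pooled test does not describe the difference between media in either genotype. The ratio of Dnmt3l to the summed enzymes was 1.73 ± 0.0900 and 1.78 ± 0.152 in 2i + LIF, and 1.41 ± 0.0123 and 1.14 ± 0.0390 in PD + LIF, for wild-type and Trincr1-/- ESCs in turn.

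**Figure D3:**
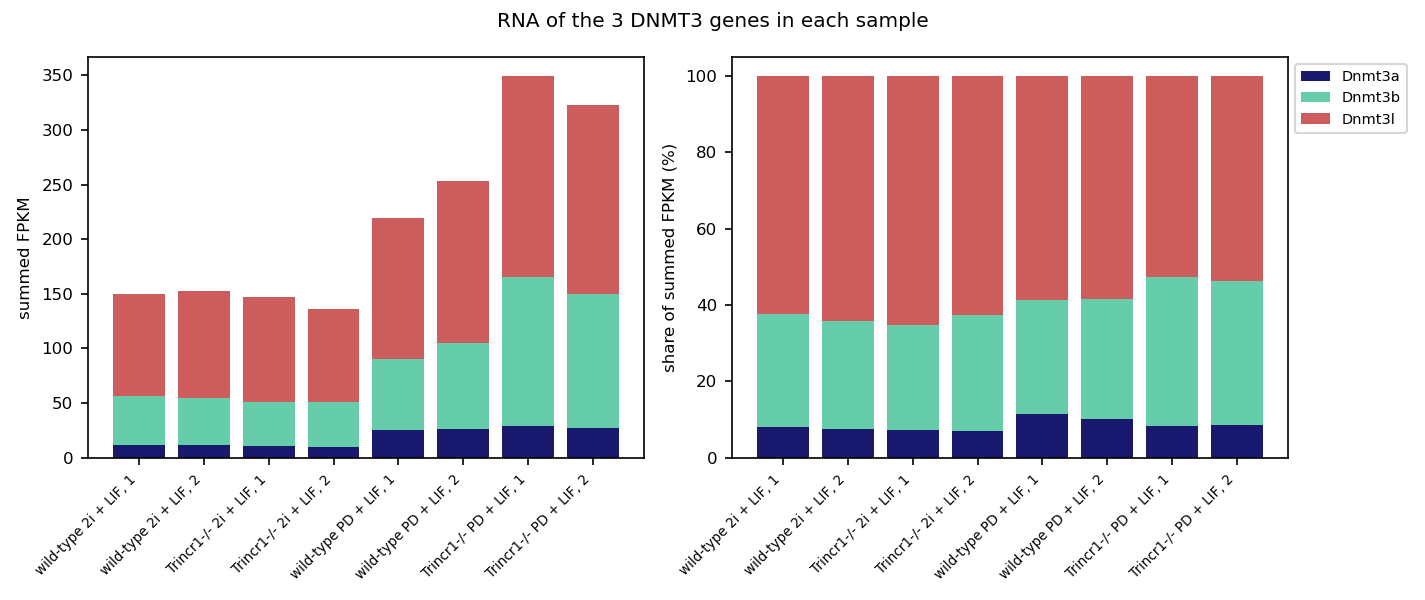
Stacked FPKM (left, y axis) and share of the summed FPKM in percent (right, y axis) of Dnmt3a, Dnmt3b and Dnmt3l in each of the 8 samples on the x axis. The sum was 137 to 153 FPKM in 2i + LIF, 220 and 253 in wild-type ESCs in PD + LIF, and 349 and 323 in Trincr1-/- ESCs in PD + LIF.

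Among the TET genes, Tet1 (chr10:62804570-62899118), the most abundant of the 3 in these cells, was at 36.0 and 37.7 FPKM in wild-type and at 35.5 and 35.0 in Trincr1-/- ESCs in 2i + LIF. It stood at 38.0 and 39.8 FPKM in wild-type and at 31.1 and 31.8 in Trincr1-/- ESCs in PD + LIF, so that both Trincr1-/- samples lay below all 6 others. Tet1 was lower in Trincr1-/- ESCs in PD + LIF, at 80.9% of wild-type (log2 -0.30, 95% interval -0.42 to -0.18, limma, adjusted p = 0.0149), and passed under 12 of 17 alternatives, with adjusted p from 0.00882 to 0.0896. It was lost without any of the 4 PD + LIF libraries. Between media it did not pass in wild-type ESCs (log2 0.07, adjusted p = 0.266, and -0.08 with median scaling). In Trincr1-/- ESCs it fell by 0.16 (limma, adjusted p = 0.0347), and this call was lost without any of the 4 Trincr1-/- libraries, at adjusted p from 0.0778 to 0.121.

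Tet2 (chr3:133463679-133544390) was at 17.3 FPKM in both wild-type samples and at 17.9 and 16.8 in Trincr1-/- ESCs in 2i + LIF. The PD + LIF level was 2.96 FPKM in both wild-type samples, and 2.97 and 2.72 in Trincr1-/- ESCs. The media were far apart and the genotypes overlapped in 2i + LIF and in PD + LIF. Tet2 fell to 17.1% of its 2i + LIF level in wild-type ESCs (log2 -2.21, SE 0.08, limma, adjusted p = 5.41e-06) and to 16.4% in Trincr1-/- ESCs (log2 -2.25, adjusted p = 3.01e-06). Its genotype difference was 0.00 in 2i + LIF (95% interval -0.19 to 0.20) and -0.04 in PD + LIF (-0.23 to 0.15), and its sign changed with scaling in 2i + LIF and with a library left out in either medium.

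Tet3 (chr6:83362373-83459084) was at 1.01 and 0.649 FPKM in wild-type and at 0.653 and 0.528 in Trincr1-/- ESCs in 2i + LIF. The PD + LIF samples were at 2.22 and 2.16 FPKM in wild-type and at 4.15 and 3.75 in Trincr1-/- ESCs. It was the only member near the detection range of low genes, with an estimated 58.1 to 537 fragments per sample. Tet3 rose 2.64-fold between media in wild-type ESCs (log2 of FPKM + 1 0.81, SE 0.14, limma, adjusted p = 0.00210) and 6.69-fold in Trincr1-/- ESCs (1.64, adjusted p = 8.19e-05). Trincr1-/- ESCs were 1.80-fold above wild-type in PD + LIF (0.63, 95% interval 0.31 to 0.95, adjusted p = 0.0290), and it passed under 10 of 17 alternatives, with adjusted p from 0.0262 to 0.147. That call too was lost without any of the 4 PD + LIF libraries. The added 1 FPKM makes these log2 values smaller than the ratios of the means. The difference of the genotype effect between media was 0.83 and did not pass (adjusted p = 0.0837).

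The makeup of the TET RNA therefore differed between media. Tet2 held 32.0% ± 0.836 of the summed TET FPKM over the 4 samples in 2i + LIF and 7.08% ± 0.512 over the 4 in PD + LIF (exact permutation p = 0.0286 with genotypes pooled, the smallest that this pooled test allows). Tet1 held 66.7% ± 0.875 and 85.3% ± 3.59, and Tet3 held 1.31% ± 0.375 and 7.65% ± 3.12, each with the same exact permutation p and no overlap. The shares of the TET genes are parts of 1 total, so these tests are not independent. Within PD + LIF the share of Tet3 was 4.98% ± 0.243 in wild-type and 10.3% ± 0.744 in Trincr1-/- ESCs (n = 2 each, no test). The summed TET level was 55.0 ± 0.958 FPKM and 53.2 ± 1.21 in 2i + LIF and 44.0 ± 1.26 and 38.2 ± 0.00504 in PD + LIF, for wild-type and Trincr1-/- ESCs in turn.

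**Figure D4:**
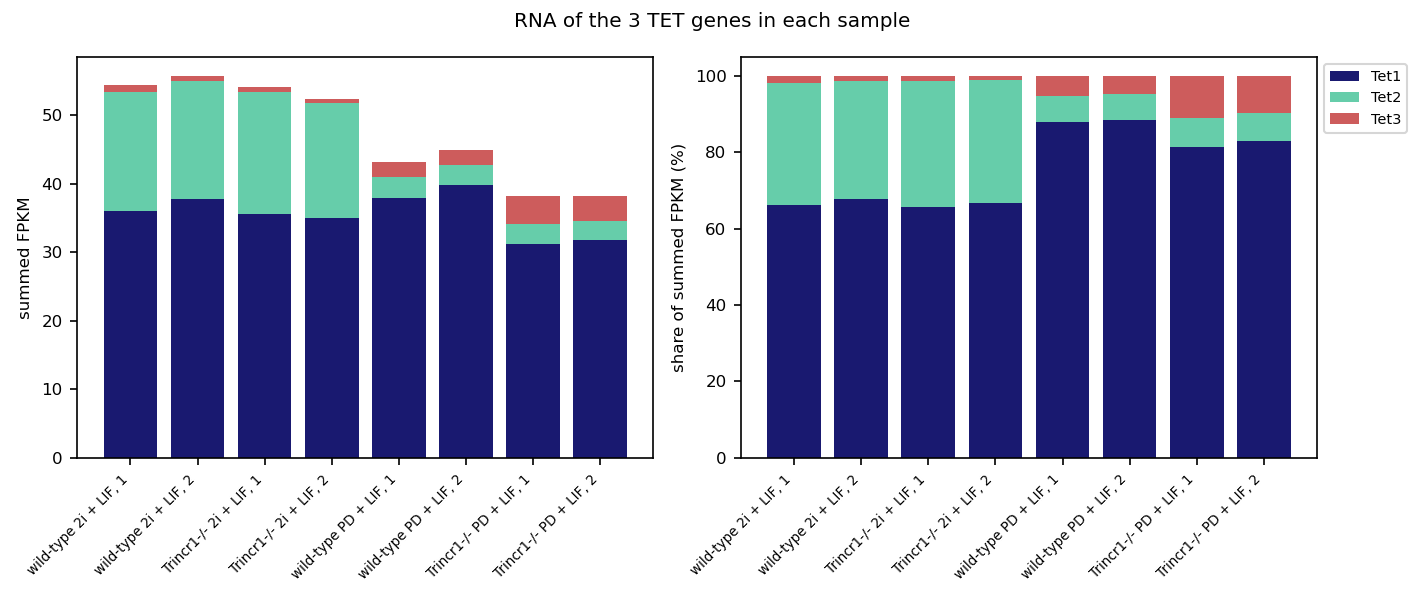
Stacked FPKM (left, y axis) and share of the summed FPKM in percent (right, y axis) of Tet1, Tet2 and Tet3 in each of the 8 samples on the x axis. Tet2 took 32.0% on average in 2i + LIF and 7.08% in PD + LIF, and Tet3 took 10.3% in Trincr1-/- ESCs in PD + LIF.

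Tdg (chr10:82629828-82650799), the glycosylase that removes oxidised methylcytosine, was at 40.4 and 31.6 FPKM in wild-type and at 37.8 and 28.2 in Trincr1-/- ESCs in 2i + LIF. The PD + LIF samples held 39.7 and 38.0 FPKM in wild-type and 46.1 and 41.3 in Trincr1-/- ESCs. Replicates in 2i + LIF were farther apart than the genotypes, and Tdg passed in none of the 5 comparisons. Its largest difference was 0.41 between media in Trincr1-/- ESCs (95% interval 0.05 to 0.77, limma, adjusted p = 0.0612). Copies elsewhere in the genome match 86.4% of the Tdg transcript. The pseudogene Gm9855 was listed at 8.36 to 11.4 FPKM, Lipo1, which overlaps a pair of shorter matches, at 1.40 to 4.30, and Gm5806 at 0 to 0.0926, and a match of 2935 bases on chromosome 7 has no gene annotated, so how many reads Tdg shared with copies is not known.

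The partners of these enzymes were described by 7 lists with 89 genes in the table, of which 86 were tested. In PD + LIF, 16 of the 86 differed between genotypes, against 12.1% of all genes, and in 2i + LIF 0 did, against 1.21%. Between media 60 of the 86 were called in wild-type ESCs, against 52.2% of all genes. The calls in PD + LIF were spread over 6 of the lists. They were 1 higher and 1 lower of 11 maintenance partners, 1 and 1 of 11 de novo partners, and 1 and 2 of 11 TET partners. In the repair list, which also holds Gadd45 genes, they were 3 and 3 of 18 genes. The rest were 1 and 1 of 12 genes of S-adenosylmethionine supply, 1 and 0 of 16 replication genes, and 0 of 7 methyl-CpG readers. List medians in PD + LIF lay between -0.10 and 0.10 on the log2 scale, beside 0.01 over all genes tested.

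Dppa3, whose protein keeps UHRF1 off chromatin, was the maintenance partner with the largest difference. It rose 4.47-fold between media in wild-type ESCs, from 39.2 to 175 FPKM (log2 2.14, limma, adjusted p = 2.27e-05), and in PD + LIF it was at 50.2% of that level in Trincr1-/- ESCs, at 87.9 FPKM (log2 -0.99, adjusted p = 0.00634). The genotype effect on Dppa3 differed between media by -1.08 (adjusted p = 0.0397). Of 11 maintenance partners 2 rose and 7 fell between media in wild-type ESCs (30.9% and 21.3% of all genes), among them Zfp57, which guards methylation at imprinted genes, at 55.1%, and Pcna, the replication clamp, at 69.4% of their 2i + LIF level. Trim28, the corepressor that acts with ZFP57, was 1.20 times as high as in wild-type in Trincr1-/- ESCs in PD + LIF (limma, adjusted p = 0.0142).

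Of 11 de novo partners 2 rose and 4 fell between media in wild-type ESCs (30.9% and 21.3% of all genes). Prdm14, a repressor of Dnmt3b in ESCs, fell to 53.7% (log2 -0.83, limma, adjusted p = 0.000566) and in Trincr1-/- ESCs to 39.8% (log2 -1.21, adjusted p = 9.85e-05). The histone methyltransferase gene Whsc1 rose 1.43-fold in wild-type ESCs and in PD + LIF was 1.31 times the wild-type level in Trincr1-/- ESCs (log2 0.37, adjusted p = 0.0188), where Mga, a subunit of a repressor of germline genes, was at 81.8% (adjusted p = 0.0379). Trdmt1, an RNA methyltransferase once named Dnmt2, fell to 49.7% between media in wild-type ESCs.

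Of 11 TET partners, Nanog, which binds TET1, was at 71.9% of wild-type in Trincr1-/- ESCs in PD + LIF (log2 -0.47, limma, adjusted p = 0.00876). Idh2, whose enzyme makes the TET cosubstrate in mitochondria, was at 76.4% (adjusted p = 0.0118), and Sall4 was 1.32-fold higher (adjusted p = 0.00811). Ogt, the glycosyltransferase that binds TET proteins, rose 1.65-fold between media in wild-type ESCs. The list of base excision repair also held Apobec1 and the Gadd45 genes Gadd45a, Gadd45b and Gadd45g. Of its 18 tested genes, 10 rose and 4 fell between media in wild-type ESCs (30.9% and 21.3% of all genes). Those that rose included Gadd45a, Gadd45b and Gadd45g. They were led by Gadd45g, a stress gene linked to demethylation, which rose from 0.823 to 14.6 FPKM. In PD + LIF, Gadd45a was 1.73-fold higher and the glycosylase gene Neil2 at 43.7% in Trincr1-/- ESCs (log2 0.77 and -0.98, adjusted p = 0.0114 and 0.0173 by limma), and Apex1, the endonuclease that acts after TDG, was 1.25-fold higher (adjusted p = 0.00471).

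Of 12 genes that supply the methyl donor, 2 rose and 6 fell between media in wild-type ESCs (30.9% and 21.3% of all genes). Mat2a, which makes S-adenosylmethionine, fell to 38.7% (log2 -1.36, limma, adjusted p = 3.73e-06), and in PD + LIF Trincr1-/- ESCs held 1.25-fold more than wild-type (adjusted p = 0.00623). Of 16 replication genes 0 rose and 11 fell between media in wild-type ESCs (30.9% and 21.3% of all genes), among them Tyms at 65.6% and Mcm5 at 70.5%, beside Uhrf1 at 64.2%. The summed level of these 16 genes was 1605 to 1650 FPKM in wild-type and 1570 to 1592 in Trincr1-/- ESCs in 2i + LIF, and 1361 to 1394 and 1355 to 1381 in PD + LIF, and its part in the lower Uhrf1 was not tested. Of 7 methyl-CpG readers 3 rose and 1 fell between media in wild-type ESCs (30.9% and 21.3% of all genes), Mbd3 falling to 74.8%.

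Markers of cell state moved with the same comparisons. Between media in wild-type ESCs, 7 of 10 ESC markers fell and 3 rose, against 21.3% and 30.9% of all genes. Their summed level was 1942 to 1964 FPKM in 2i + LIF and 1421 to 1471 in PD + LIF. In Trincr1-/- ESCs in PD + LIF, 7 of 10 ESC markers were lower and 0 higher than in wild-type, against 5.77% and 6.29% of all genes, with a summed level of 1095 to 1141 FPKM against 1421 to 1471. Of 5 formative epiblast markers 1 was higher, Sox3, with a summed level of 67.7 to 73.8 FPKM against 51.5 to 57.4, and all 5 rose between media in wild-type ESCs from a sum of 5.02 to 6.21. Of 5 tested trophoblast markers 1 was higher, Krt8, at 144 ± 3.73 FPKM against 66.9 ± 6.95 (limma, adjusted p = 0.00274), and the sum of the list, 185 FPKM in both Trincr1-/- samples against 115 to 119 in wild-type, rose with that gene. Tfap2c stood at 36.4 against 45.6 FPKM and Eomes at 0.883 against 1.54, neither past the test (adjusted p = 0.168 and 0.0531). In 2i + LIF 1 of the 5 was higher, Cdx2, at 3.02 against 0.746 FPKM (limma, adjusted p = 0.0120), beside 1.21% of all genes called. The genotype effect on Cdx2 differed between media by -1.11 (limma, adjusted p = 0.0430), and in PD + LIF it did not pass (0.138 against 0.0730 FPKM). In PD + LIF, neural markers summed to 37.9 to 39.0 FPKM against 27.8 to 30.3, with 1 of 4 tested higher. Primitive endoderm, mesendoderm and fibroblast markers summed to 6.34 FPKM or less in every sample, with Mesp1 and Twist2 under 0.1 FPKM throughout. In PD + LIF all 3 sums were nevertheless higher in Trincr1-/- ESCs, at 5.58 to 5.89 against 4.31 to 5.05 FPKM, 4.12 to 4.22 against 2.87 to 2.88 and 5.6 to 6.34 against 4.15 to 4.59 in that order. Of 3 tested genes in each list, 0, 1 and 1 were higher, the mesendoderm gene Foxa2 3.85-fold (limma, adjusted p = 0.0182) and the fibroblast gene Col1a1 4.61-fold (adjusted p = 0.00370), and the genotype effect on Col1a1 differed between media (1.11, adjusted p = 0.0280). In bulk RNA, a different number of cells of a state and a different level per cell cannot be told apart. The part of these cell states in the levels of the 10 members, between genotypes or between media, was not tested. Of 11 tested genes that respond to GSK3 inhibition, 7 fell and 2 rose between media in wild-type ESCs, against 21.3% and 30.9% of all genes, with a sum of 180.5 to 198 FPKM in 2i + LIF and 66.9 to 72.7 in PD + LIF. In Trincr1-/- ESCs in PD + LIF the sum was 85.9 to 89.3 FPKM, and 3 of the 11 were higher and 1, Tcf7, lower than in wild-type, against 6.29% and 5.77% of all genes. Those higher were Sp5 (5.56-fold, limma, adjusted p = 0.00170), Axin2 (3.41-fold, adjusted p = 0.00254) and Nkd1 (2.62-fold, adjusted p = 0.00746). Nkd1 was 1 of the 2 that rose without the GSK3 inhibitor in wild-type ESCs (4.00-fold, limma, adjusted p = 0.00149). Sp5 and Axin2 fell there to 10.1% and 12.3% of their 2i + LIF level. The genotype effect was larger in PD + LIF than in 2i + LIF by 1.56 for Sp5 (adjusted p = 0.0272) and 1.09 for Axin2 (adjusted p = 0.0409, both by limma). Sp5, Axin2 and Nkd1 thus shared the direction of Dnmt3b, Dnmt3l and Tet3 between genotypes in PD + LIF. Between media in wild-type ESCs, Sp5 and Axin2 fell while those members rose. The part of these genes in the levels of the members was not tested.

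Over the 8 samples, the genes whose log2 levels followed each member most closely were listed among 12063 genes with a mean of at least 1 FPKM, as a description. For Dnmt3b they were Gpr4, Nkd1 and Igf2os (Pearson r 0.999, 0.996 and 0.995), for Dnmt3l Hmgcs1, Fam171a2 and Tpm4 (0.997, 0.996 and 0.995), and for Dnmt3a Pmaip1, Pi4k2b and Rhoc (0.998 each). For Tet2 they were Nkx1-2, Slc7a1 and Sh2d4b (1.000, 0.999 and 0.999), for Tet3 Trp53bp2, Cited2 and Cabp7 (0.997, 0.994 and 0.994), and for Tet1 Tln2, Chchd10 and Esco2 (0.971, 0.971 and 0.966). For Uhrf1 they were Raver1, Tatdn2 and Ddi2 (0.999, 0.998 and 0.997), for Uhrf2 Prdx6, Phip and Agap3 (0.999, 0.999 and 0.998), for Dnmt1 Cacna2d2, Lyrm7 and Cad (0.984, 0.981 and 0.970), and for Tdg Pigp, Tanc2 and Iqce (0.961, 0.959 and 0.958). The points share 2 media, so an r above 0.95 was common: 1423 genes reached it with Uhrf2 and 1007 with Tet2, but 10 with Tet1, 7 with Dnmt1 and 4 with Tdg. With Dnmt3b, Dnmt3l and Tet3 it was reached by 368, 571 and 556 genes. Among the members themselves, Dnmt3b, Dnmt3l and Tet3 followed one another at 0.98 each, and Tet2 ran against Uhrf2 and Dnmt3a at -0.99 each. Dnmt3a followed Uhrf2 at 0.99, Dnmt3l and Tet3 at 0.96 each and Dnmt3b at 0.92.

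RNA pulled down with FLAG-TRIM71 from ESCs overexpressing 3XFLAG-tagged Trim71 in 2i + LIF was also sequenced with its input, to find RNAs bound by TRIM71. The sample labels name 2 replicates each of the input, the FLAG-TRIM71 pulldown and a pulldown labelled empty. The table holds 1 value per transcript for the FLAG-TRIM71 pulldown and 1 for the input. Whether these values pool the replicates is not stated in the sources used here, so no ratio has an error or a test. The pulldown labelled empty was not analysed here. Dnmt3a was at 9.8 FPKM in the input and 16.8 in the pulldown, or 37.8 after the authors' scaling, a ratio of 3.86. With an input above 2 FPKM and a ratio above 3, 492 of 9651 transcripts (5.1%) qualified, Dnmt3a ranking 361 by ratio, and it was 1 of the 7 members with enough input. The other 6 had ratios under 1. Uhrf1 was at 252 FPKM in the input and 41.0 in the pulldown (scaled ratio 0.365), Tet1 at 10.1 and 2.1 (0.475), Dnmt1 at 46.0 and 2.5 (0.124) and Uhrf2 at 6.9 and 0.1 (0.0290). Tdg, at 24.4 FPKM in the input, and Dnmt3b, at 5.0, were listed at 0 in the pulldown, as were 34.5% of transcripts with an input of 20 to 30 FPKM and 66.0% of those with 4 to 6. The ratio of Dnmt3a was 1.71 without the scaling, which is under the threshold of 3, and 7.76 with each library divided by its mean without its 100 highest transcripts.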

How the data were processed

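Poly(A) RNA of 8 ESC samples was sequenced. The authors aligned reads with STAR 2.5.0 and deposited FPKM values per gene from Cufflinks 2.2.1, named in the submitters' processing notes beside mm9, while the gene intervals of the table are those of GRCm38. The deposited pulldown table lists, for each transcript, an FPKM value of IP and of input, both again after scaling, and the authors' own enrichment ratio, which was not used here. From these, genes with a mean above 0.2 FPKM were compared as log2(FPKM + 1) with limma 3.58.1 in R 4.3.3, all 8 samples in 1 model with a variance trend, 4 residual degrees of freedom and Benjamini-Hochberg adjustment over 15430 genes, with a threshold of 0.05. The fit was tested on simulated data. Because the strand setting is not given in the sources used here, overlapping genes cannot be separated. Shares were compared with exact permutation tests in scipy 1.17.1, near-identical copies were found by BLAST 2.17.0 against NCBIM37, and promoters came from RefSeq. Depth was estimated with 220 bases taken off each transcript length. The members and gene lists were chosen with earlier results of these data known. Named partner genes are up to 4 per list and comparison with the largest log2 difference among those past the threshold without overlap of replicates, and the 3 genes most correlated with each member. The table lists Nsd2 as Whsc1. Dnmt3c, Cdt1, Gins2 and Tubb3 were not analysed here. The 2 samples of a group are labelled only as replicates, with no culture or clone named, so the p-values measure the spread between these samples, which may be technical. Alternatives were tried for the pseudocount, filter, normalization, variance model, samples fitted, replicate block and each library left out.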

Additional observations from a re-analysis of the deposited data

Results flagged for a closer look

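The genotype effect on Dnmt3b differed between the media by 0.93 on the log2 scale (limma interaction, SE 0.13, adjusted p = 0.0285). Trincr1-/- ESCs lay 0.83 above wild-type in PD + LIF, while the estimate in 2i + LIF was -0.09. Both Trincr1-/- samples in PD + LIF, at 137 and 122 FPKM, were above the other 6. It was the only one of the 10 members past the threshold for that difference, and the adjusted p ran from 0.0214 to 0.117 over 16 alternatives, with 6 past the threshold. Groups of 2 samples are too small to test any sample as an outlier.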

How the results depend on the processing

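The 7 members called between media in wild-type ESCs kept their call and direction under every model tried, as did the same 7 in Trincr1-/- ESCs, where with Tet1, Dnmt1 or Tdg the count was 7 to 9. Requiring an average of 1 FPKM or more and a ratio over 2, in place of a test, called 4 of them in wild-type and 5 in Trincr1-/- ESCs, and 0 between genotypes in PD + LIF. The 4 calls between genotypes in PD + LIF became 2 without a filter on low values and 0 with only the 4 samples compared, and ranged from 1 to 4 with a library left out. The 1 call for the difference between media became 0 without the filter, 0 without the variance trend, and was 0 to 1 with a library left out. With the replicate number as a block it was 0, the call of Dnmt3l in PD + LIF was lost (adjusted p = 0.051), Tdg between media in Trincr1-/- ESCs passed (0.41, adjusted p = 0.012), and no other member's call changed. Replicate numbers did not pair the samples: the deviations of same-numbered samples correlated at -0.0539 to 0.00634. Signs turned with median scaling for Dnmt1 (-0.0679), Tet1 (-0.0839) and Tdg (-0.0394) between media in wild-type ESCs, Dnmt1 in Trincr1-/- ESCs (-0.1231, adjusted p = 0.034) and Tet2 between genotypes in 2i + LIF (-0.0134, and -0.0084 with quantile normalization). With a library left out, the genotype difference in 2i + LIF ranged from -0.0834 to 0.0041 for Uhrf1, -0.1625 to 0.0029 for Dnmt3l, -0.0372 to 0.0462 for Tet2 and -0.3287 to 0.0784 for Tdg. That of Tet2 in PD + LIF ranged from -0.0876 to 0.0063, the difference of effects from -0.0064 to 0.1258 for Uhrf2 and -0.0921 to 0.0019 for Tet2, and the difference between media from -0.0533 to 0.2904 for Tdg in wild-type and -0.0182 to 0.0413 for Dnmt1 in Trincr1-/- ESCs. The Dnmt3b share of the de novo pair differed by -1.63 points between media with genotypes pooled. That difference was 0.232 after quantile normalization and -3.17 to 0.329 with a library left out, turning sign without wild-type PD + LIF replicate 1. The pulldown ratio of Dnmt3a was 1.71 unscaled, 7.76 with trimmed means and 3.59 with 1 FPKM added. Where causes of these changes are not given by construction, the cause was not tested. With 2 samples per group and Tet3 at under 5 FPKM, small differences were not detectable.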

Other observations

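The input of the TRIM71 pulldown came from ESCs in 2i + LIF, as did the wild-type 2i + LIF samples of the RNA-seq, and the tables were normalized separately. The sources differed in other ways as well. The paper describes poly-T purification for the RNA-seq, whereas RNA of the pulldown experiment went straight into cDNA synthesis. Reads on transcripts without poly(A) were then left out. The pulldown used UV-crosslinked ESCs that overexpressed FLAG-tagged Trim71. Dnmt3l was at 0.9 FPKM in the input and at 95.7 ± 3.12 FPKM (n = 2) in the RNA-seq, a ratio of 0.00941. Dnmt3b was at 5.0 and 43.7 FPKM and Tet2 at 1.7 and 17.3, ratios of 0.114 and 0.0983. Uhrf1 was at 252 and 234, Dnmt3a at 9.8 and 11.7 and Dnmt1 at 46.0 and 76.1. Over 10869 genes with at least 1 FPKM in the RNA-seq and at least 0.1 in the input, the median ratio was 0.79, with quartiles of 0.432 and 1.37, and 0.046% of genes had a lower ratio than Dnmt3l, 2.98% than Dnmt3b and 2.29% than Tet2. The cause of the gap was not tested.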
